A study of Mus musculus with 26 samples.

Results

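The cap-binding complex eIF4F and the helicases that open structured 5′UTRs were followed in ribosome footprinting and RNA-Seq of mouse striatum. The genes were taken by symbol and are *Eif4a1*, *Eif4a2*, *Eif4b*, *Eif4h*, *Eif4e*, *Eif4g1*, *Eif4g2*, *Eif4g3*, *Ddx3x* and *Dhx29*. Of these 10 genes, 9 are listed in each of the 3 deposited tables, and *Dhx29*, a helicase that works on the small ribosomal subunit during scanning, is listed in none. The tables, for mice with a G2019S LRRK2 transgene (GS TG), mice with a kinase-dead G2019S/D1994A LRRK2 transgene (GS/DA TG) and LRRK2 knockout (KO) mice, hold 8576, 8576 and 9561 transcripts. The authors discarded transcripts with few reads, and whether *Dhx29* was among them was not tested.

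The study compared mice with mutant, kinase-inactive or no LRRK2, the kinase whose G2019S change is a cause of inherited Parkinson's disease. In GS TG mice a tetracycline-regulated transgene was under the CaMKII-tTA driver, which is active in forebrain neurons, and in GS/DA TG mice it also carried the D1994A change that removes kinase activity. Both were set against non-transgenic mice (non-TG control), which the labels give as wild-type, while KO mice were set against wild-type (WT) mice. All groups were C57BL/6 and 3 months old, each library is described as a pool of 3 mice of mixed sex, and the labelled region is the striatum. There were 3 footprinting and 3 RNA-Seq libraries of non-TG control, 2 and 2 of GS TG, 2 and 2 of GS/DA TG, and 3 and 2 each of WT and KO. Footprinting sequences the mRNA fragments that ribosomes protect from RNase, and RNA-Seq measured total RNA without rRNA. The tables give 1 normalized mean per group and assay with no error, and the reads of the 2 libraries behind a mean were recovered for 10 of 12 columns of means. Both columns of non-TG control in the GS TG table could not be split into libraries. Recovered libraries held 7516280 to 19052228 footprinting reads and 8696465 to 14546606 RNA-Seq reads in coding sequences (CDS) in the transgenic tables. Those of the KO table held 2865413 to 6051183 footprinting and 3131554 to 10879892 RNA-Seq reads.

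In eIF4F, eIF4E binds the cap of an mRNA, eIF4G holds eIF4E and the helicase eIF4A together, and eIF4G in turn reaches the small ribosomal subunit through eIF3. eIF4A unwinds the 5′UTR with help from eIF4B and eIF4H, and DDX3X is a further DEAD-box helicase needed by mRNAs whose 5′UTRs are long or highly structured. In neurons the pathway is controlled through mTOR and the 4E-BPs and is tied to local protein synthesis and synaptic plasticity.

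Lrrk2 itself was measured first, as a check of the labels. Its footprints came to 7052 and 3320 normalized reads in the GS TG libraries. In the GS/DA TG table they came to 7267 and 4766 in the GS/DA TG libraries against 1445 and 1224 in non-TG control. In the KO table they came to 102 and 149.7 in KO against 400.3 and 690.1 in WT. In footprinting the GS/DA TG libraries were thus high and the KO libraries low, with no overlap with the controls of their tables. For GS TG only a non-TG control mean of 2524 is known, and library 2 at 3320 lay much nearer to it than library 1. The non-TG control mean of *Lrrk2* was lower in the GS/DA TG table, at 1335. For each of the 9 genes that mean was instead the higher in the GS/DA TG table. Why the *Lrrk2* control means differ was not tested. The authors' group means gave log2 changes in *Lrrk2* footprinting of 1.04, 2.17 and -2.12 in the order GS TG, GS/DA TG and KO. The RNA-Seq means gave -0.16, -0.09 and -1.54. *Lrrk2* RNA-Seq was 5038 and 404 in GS/DA TG against 5233 and 560 in non-TG control of that table. It was 3550 and 214 in GS TG, whose own control libraries were not recovered. RNA-Seq thus did not show the transgene that the labels give. In KO it was 423 and 270 against 1278 and 733 in WT, with no overlap. The Y-linked genes *Kdm5d* and *Uty* were at or near 0 in 4 of the 8 libraries of the KO table, which does not match pools that hold a male. Reads of *Kdm5d* came to 0 in footprinting library 1 of WT and of KO, beside 84 and 66 in library 2, and to 1 and 0 in RNA-Seq library 2, beside 377 and 704 in library 1. *Uty* in the same order had 4 and 6 beside 126 and 105, and 2 and 0 beside 231 and 362. Without these 4 libraries, 0 of the 9 genes passed the cutoff used below for translation efficiency in KO, as with them.

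Libraries of the same group stood apart in RNA-Seq of the transgenic tables, and this bears on every RNA-Seq and translation efficiency value that follows. The 2 libraries of a group are numbered here, so that library 1 of a genotype is the one most like library 1 of its control in how it differs from the other library. GS TG libraries were numbered against non-TG control of the GS/DA TG table, since those of its own table were not recovered. The labels do not give this numbering, and footprinting library 1 is not linked to RNA-Seq library 1. Between RNA-Seq libraries 1 and 2 of the same group, over 2-fold differences were found for 55.0% of 6523 compared transcripts in GS TG. The shares were 48.0% of 6870 in non-TG control of the GS/DA TG table and 56.3% of 7019 in GS/DA TG. These compared transcripts are a part of each table, and the part differs between groups. Of the 9 genes, 3, 3 and 4 differed by over 2-fold in these groups. The KO table had shares of 11.5% of 4477 in WT and 9.50% of 4528 in KO, with 1 and 0 of the 9 genes. In footprinting the shares ran from 0.267% to 11.1% over the recovered groups, with 2961 to 6774 transcripts compared. None of the 9 genes with a resolved value differed by 2-fold in any of these groups. Transcripts with a low GC content in the CDS had more RNA-Seq reads in library 1 than in library 2, with a Spearman's rho across transcripts of -0.79, -0.77 and -0.80 in the same 3 groups. Over the 9 genes, which are not independent replicates, rho was -0.75, -0.60 and -0.77. Footprinting had the same direction in these groups, with rho across transcripts of -0.33, -0.45 and -0.48, while in the KO table it was 0.63 in WT and 0.29 in KO for footprinting and 0.02 and -0.26 for RNA-Seq.

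Across the 3 comparisons, changes of the 9 genes were mostly small, as were those of all transcripts. All 9 footprinting changes lay within 0.25 of 0 on the log2 scale in each comparison, as did 93.5%, 93.0% and 84.6% of all transcripts. The lowest was *Eif4g1* in GS TG at -0.12 and the highest *Eif4e* in KO at 0.21. RNA-Seq changes lay within 0.25 of 0 for 6 of 9 genes in GS TG, 6 in GS/DA TG and 7 in KO, against 81.0%, 83.2% and 74.6% of all transcripts. The RNA-Seq change was larger in size than the footprinting change for 5, 6 and 8 of the 9 genes, against 60.7%, 59.8% and 59.4% of all.

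Translation efficiency (TE) is the ratio of the 2 group means of a gene, footprinting over RNA-Seq, and is compared as its log2. A TE difference, genotype minus control, is called up or down here where its *z* score over all transcripts of the table reaches 1.5 or -1.5, which is a description and no test. In GS TG, 1 of the 9 genes was up, *Eif4g2*, where 8.01% of all transcripts were, and 0 were down, where 3.91% were. In GS/DA TG, 1 was up, *Eif4e*, where 3.65% of all were, and 0 were down, where 7.36% were. In KO, 0 of the 9 were up, where 6.23% of all were, and 0 down, where 6.02% were. These counts lie near the background. The median TE difference of the 9 genes was -0.03, -0.08 and 0.01 in the order GS TG, GS/DA TG and KO, beside 0.02, -0.05 and 0.02 over all transcripts. The GS TG and GS/DA TG comparisons may share control mice, since the labels give 1 set of non-TG control libraries, so their values are given side by side and were not related to each other.

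limma was fitted to the recovered libraries across whole tables, with p-values adjusted by the Benjamini-Hochberg method, for GS/DA TG and KO. Its p-values measure the spread between these libraries, 2 pools in each group. No fit was made for GS TG, as the control libraries of its own table were not recovered. In GS/DA TG, limma called 0 of 7 genes with resolved libraries in footprinting, where 0% of 8425 transcripts were called. At an unadjusted p under 0.05 the limma count was 0 of 7, beside 154 transcripts or 1.83%. In RNA-Seq limma called 0 of 9 genes and 0% of 8494 transcripts, with 0 genes and 0 transcripts at an unadjusted p under 0.05. For TE, the interaction of genotype and assay, limma called 0 of 7 genes and 0% of 8397 transcripts, and again 0 of both unadjusted. In KO, limma called 0 of 9 genes in footprinting, RNA-Seq and TE, and 0% of 9554, 9555 and 9553 transcripts. At an unadjusted p under 0.05, 0 of the 9 genes passed limma in each, beside 0.167%, 0.0733% and 0.0419% of transcripts. Since 0 transcripts were called, *Lrrk2* was not called either, although its footprinting libraries did not overlap in GS/DA TG or in KO. In GS/DA TG footprinting the smallest adjusted limma p over all transcripts was 0.928. A count of 0 in these fits thus does not tell small changes from large ones. With the matched libraries 1 and 2 as a block, limma called 0 of the 9 genes or fewer that could be tested in all of these fits, beside 0.273%, 0% and 0% of transcripts for footprinting, RNA-Seq and TE in GS/DA TG and 0.157%, 0.115% and 0% in KO. Unadjusted, that blocked limma count was also 0, beside 14.0%, 1.60% and 0.405% of transcripts in GS/DA TG and 3.19%, 4.15% and 1.93% in KO.

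Library values of the 2 groups overlapped for every gene of the group that could be compared. The number of genes whose groups did not overlap was 0 of 7 in footprinting and 0 of 9 in RNA-Seq of GS/DA TG, beside 24.2% and 3.38% of all transcripts. It was 0 of 9 and 0 of 9 in KO, beside 12.6% and 14.0%. Within matched library pairs, 3 of 7 genes in footprinting and 4 of 9 in RNA-Seq of GS/DA TG differed from control in the same direction in both pairs, against 60.6% and 37.8% of all transcripts. In KO these counts were 2 of 9 and 4 of 9, against 43.6% and 48.0%.

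**Figure D1:**
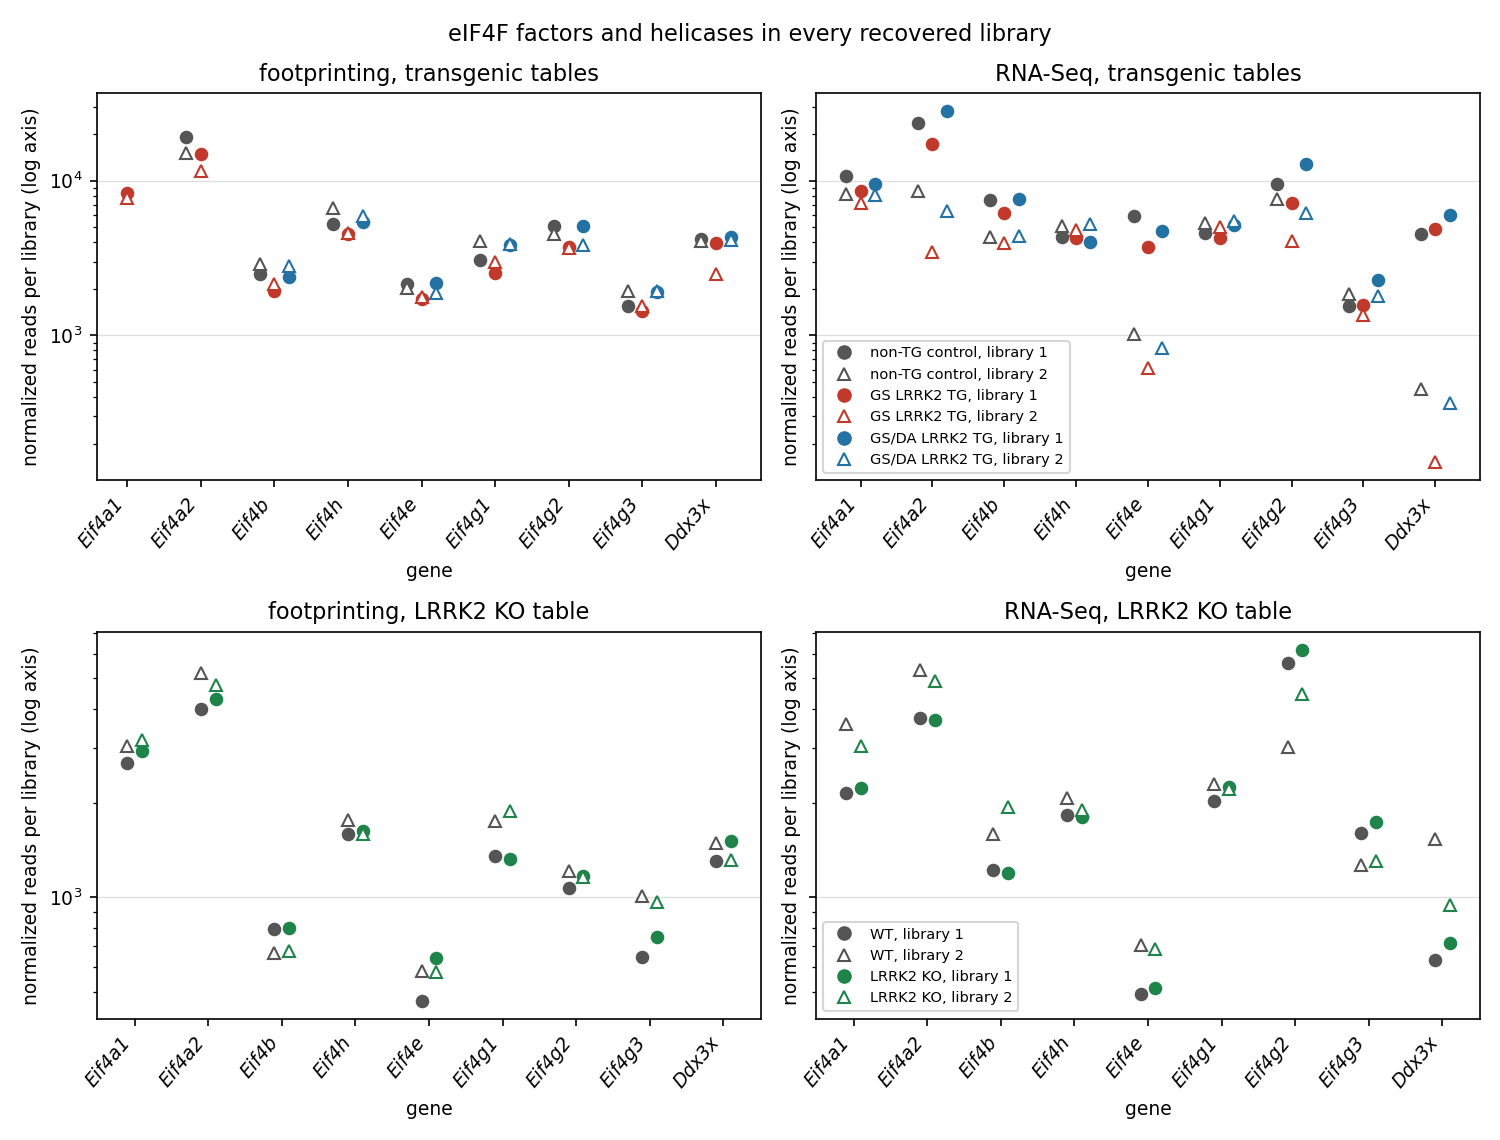
Normalized reads (log axis) of each recovered library for the 9 genes, with footprinting and RNA-Seq of the transgenic tables and of the KO table in separate panels. Color gives the group, filled circles library 1 and open triangles library 2, and values with several possible pairs of reads are left out. RNA-Seq of *Ddx3x* in GS TG runs from 151 to 4854, while its footprinting runs from 2488 to 3961.

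The levels of the 9 genes, given as the group mean per kb of CDS, kept 1 order in footprinting in every group of every table. In non-TG control of the GS TG table the helicase *Eif4a2* stood first with 10537 per kb, followed by its paralogue *Eif4a1* with 6902 and the cofactor *Eif4h* with 6297. The cap-binding *Eif4e* came next with 2480, then *Ddx3x* with 1574, *Eif4g2* with 1324 and *Eif4b* with 1165. The scaffolds *Eif4g1* and *Eif4g3* were lowest with 623 and 301. In WT, on that table's own scale, the same order ran from 3744 for *Eif4a2* to 174 for *Eif4g3*. Neighbours in this order overlapped between libraries for *Ddx3x* and *Eif4g2* in GS TG, and for *Eif4g2* and *Eif4b* in GS/DA TG. In WT, *Eif4a1* overlapped *Eif4h*, and *Eif4e* overlapped *Ddx3x*. *Eif4b* overlapped both *Eif4g2* and *Eif4g1* in WT and in KO. For non-TG control of the GS TG table, and for neighbours of *Eif4a1* in the GS/DA TG table, overlap is not known. The order in RNA-Seq was different between tables. In WT it ran *Eif4a2*, *Eif4h*, *Eif4a1*, *Eif4g2*, *Eif4e*, *Eif4b*, *Ddx3x*, *Eif4g1* and *Eif4g3*.

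**Figure D2:**
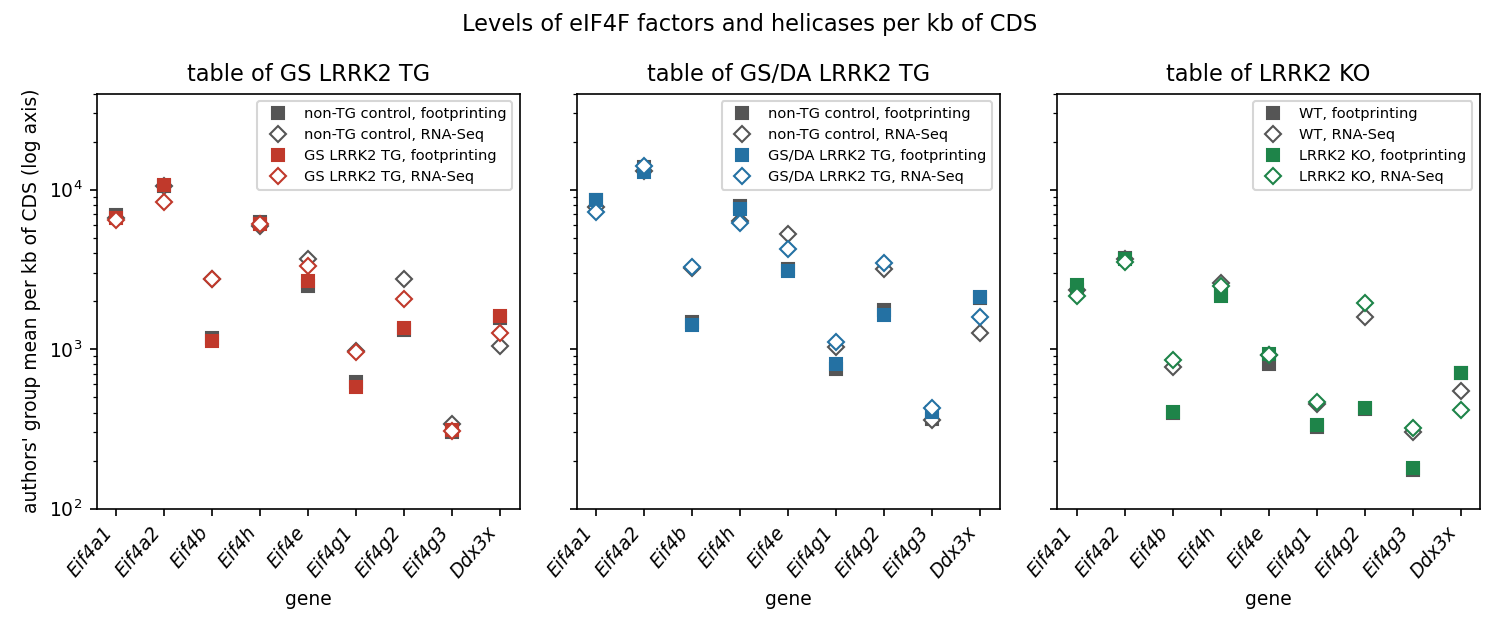
Group means per kb of CDS (log axis) of the 9 genes in each table, squares for footprinting and diamonds for RNA-Seq, with colors for the groups. *Eif4a2*, *Eif4a1* and *Eif4h* have the highest footprinting levels and *Eif4g1* and *Eif4g3* the lowest, from 10537 to 301 in non-TG control of the GS TG table.

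The eIF4A helicases come first by role. *Eif4a1* and *Eif4a2* encode closely related RNA helicases that unwind the 5′UTR as part of eIF4F, and *Eif4a2* is the form known for its abundance in brain. *Eif4a1* (transcript uc007jqz.2) lies on the minus strand of chromosome 11 from 69480438 to 69485925 and *Eif4a2* (uc007ytd.2) on the plus strand of chromosome 16 from 23107517 to 23114209, both in mm9. Footprinting per kb of CDS was 1.48 to 1.63 times higher for *Eif4a2* than for *Eif4a1* over the 6 groups. In RNA-Seq the same ratio was 1.47 to 1.72 over the 4 libraries of the KO table. In the transgenic tables it was 2.00 in GS TG library 1 and 0.479 in library 2, 2.19 and 1.04 in non-TG control, and 2.93 and 0.774 in GS/DA TG. The order of the 2 paralogues thus differed in RNA-Seq between the libraries of GS TG and between those of GS/DA TG, while in footprinting *Eif4a2* was the higher in each library resolved.

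*Eif4a2* RNA-Seq came to 17137 and 3467 normalized reads in GS TG libraries 1 and 2, and its footprinting to 14772 and 11542. The authors' means were 12871 in non-TG control and 10302 in GS TG for RNA-Seq, a log2 change of -0.32, and 12929 and 13157 for footprinting, a change of 0.03. The TE difference was 0.35 (*z* 1.36), under the cutoff. In the GS/DA TG table RNA-Seq of *Eif4a2* was 23410.3 and 8587 in non-TG control and 28143 and 6324 in GS/DA TG. Library 1 was high and library 2 low in all 3 groups, and the GS/DA TG values lay on both sides of the control values. limma gave a change of -0.09 (95% interval -2.95 to 2.77) in RNA-Seq, and the TE difference of the means was -0.21 (*z* -0.76). In KO the *Eif4a2* libraries held 3678 and 4903 RNA-Seq reads against 3725 and 5316 in WT, and 4302 and 4766 footprinting reads against 3994 and 5195. These overlapped, with a limma change of -0.07 (95% interval -0.86 to 0.73) in RNA-Seq and a TE difference of 0.06 (*z* 0.13).

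*Eif4a1* RNA-Seq varied less between libraries. It came to 8541 and 7203 in GS TG, 10647 and 8227 in non-TG control of the GS/DA TG table, 9545 and 8129 in GS/DA TG, 2160.1 and 3587 in WT and 2235 and 3036 in KO. The genotype ranges overlapped the control ranges in the 2 tables with control libraries. Footprinting of *Eif4a1* was 8383 and 7694 in GS TG, 2685 and 3036 in WT and 2935 and 3179 in KO, whose ranges overlapped. In the GS/DA TG table more than 1 pair of whole reads fitted the *Eif4a1* footprinting means, so its libraries are unknown. The control libraries held either 7385 and 13632 or 11191 and 9825 normalized reads, and the GS/DA TG libraries either 6025 and 14942 or 10586 and 10381. The TE differences of *Eif4a1* were -0.03, 0.09 and 0.22 in GS TG, GS/DA TG and KO (*z* -0.36, 0.96 and 0.74).

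The stretch around the DEAD box, the motif that names this helicase family and takes part in ATP hydrolysis, shows how far the paralogues differ for reads of footprint length. Capitals mark the codons of the motif, from CDS bases 535 to 564 of *Eif4a1*, 541 to 570 of *Eif4a2*, 1030 to 1059 of *Ddx3x* and 1027 to 1056 of *Ddx3y*, its paralogue on the Y chromosome.

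Eif4a1: ttcgtactgGATGAAGCAGATgaaatgtta
Eif4a2: ttcgttttgGACGAAGCAGATgaaatgttg
Ddx3x: ctggtgttaGATGAAGCTGACcggatgtta
Ddx3y: ttagtattgGATGAAGCTGATaggatgctg

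The eIF4A pair differs at 4 of these 30 bases and the DDX3 pair at 8. The longest run of bases shared by the whole CDS was 20 for *Eif4a1* and *Eif4a2*, 19 for *Eif4g1* and *Eif4g3*, and 35 for *Ddx3x* and *Ddx3y*. Of the 26-base stretches of the *Eif4a1* CDS, 99.6% also occur elsewhere in the genome, most of them on chromosome 1. The share was 89.2% for *Eif4e*, 44.3% for *Eif4a2*, 22.1% for *Eif4b* and 14.1% for *Ddx3x*. It was 2.13% or less for *Eif4g1*, *Eif4h*, *Eif4g2* and *Eif4g3*. How the authors treated reads with several matches is not given, so the levels of *Eif4a1* and *Eif4e* are less certain than those of the scaffolds.

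The cofactors *Eif4b* and *Eif4h* encode related RNA-binding proteins that stimulate eIF4A. *Eif4b* (uc011zzw.1) lies on chromosome 15 from 101904204 to 101927603 on the plus strand, and *Eif4h* (uc008zwp.1) on chromosome 5 from 135095747 to 135115218 on the minus strand. *Eif4b* had few footprints for its RNA. Its TE ratio was 0.421 in non-TG control of the GS TG table, at percentile 11.2 of all transcripts, and 0.458 in that of the GS/DA TG table, at percentile 8.96. In the KO table it was 0.518 in WT, at percentile 32.6. *Eif4h* had a TE ratio of 1.06 in the first of these controls, at percentile 64.1. Footprinting per kb of CDS was 5.37 to 5.67 times higher for *Eif4h* than for *Eif4b* over the 6 groups, while the RNA-Seq ratio of the group means was 1.89 to 3.40. By library that RNA-Seq ratio ran from 1.29 to 3.72, with 1.29 and 2.94 in GS/DA TG alone.

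Neither cofactor stood out between genotypes. *Eif4b* RNA-Seq was 6213 and 3940.3 in GS TG, 7509 and 4334 in non-TG control of the GS/DA TG table and 7618 and 4398 in GS/DA TG, 1219 and 1598 in WT and 1196 and 1942 in KO. *Eif4h* RNA-Seq in the same order was 4275 and 4790.3, 4345 and 5085, 4001 and 5259, 1829.7 and 2069, and 1808 and 1899. Library 1 was high for *Eif4b* in the transgenic groups and low for *Eif4h*, and genotype and control ranges overlapped for both. Footprinting of *Eif4b* was 1940 and 2160 in GS TG, 2511 and 2911 in non-TG control and 2377 and 2815 in GS/DA TG, and 794 and 665 in WT and 798 and 674 in KO. Footprinting of *Eif4h* in that order was 4497 and 4583, 5225 and 6621, 5438 and 5901, 1597 and 1768, and 1628 and 1589. In GS/DA TG and KO these ranges overlapped those of their own controls as well. The non-TG control values are those of the GS/DA TG table, since the control libraries of the GS TG table were not recovered. The TE differences of *Eif4b* were -0.06, -0.08 and -0.14 in GS TG, GS/DA TG and KO, with *z* scores of -0.52, -0.05 and -0.59. Those of *Eif4h* were -0.08, -0.04 and 0.01, with *z* scores of -0.63, 0.22 and -0.05.

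*Eif4e*, which binds the mRNA cap and is the target of the 4E-BPs, lies on chromosome 3 from 138189155 to 138220563 on the plus strand (uc008rnn.1). Its RNA-Seq was 5873 and 1018 normalized reads in non-TG control of the GS/DA TG table and 4695 and 825 in GS/DA TG. Library 1 held over 5-fold more than library 2 in both groups, 5.72-fold and 5.63-fold with 10 reads added to each, and the groups overlapped, although GS/DA TG was the lower in each matched pair. The within-pair log2 changes were -0.32 and -0.30. Footprinting was 2159 and 2024 in non-TG control and 2171 and 1870.1 in GS/DA TG. limma gave an RNA-Seq change of -0.31 (95% interval -4.04 to 3.42) and a footprinting change of -0.05 (95% interval -0.38 to 0.27). With the matched libraries as a block, the RNA-Seq interval was -0.71 to 0.09. The TE difference of the means was 0.27, with a *z* score of 1.99 that passed the cutoff. It was -1.49 without non-TG control RNA-Seq library 1 and 2.01 without GS/DA TG RNA-Seq library 1, and the call held for 3 of the 8 libraries left out in turn. Leaving out a library sets 1 library against both of the other group. These values thus also carry the difference between libraries 1 and 2. In settings with all libraries, or with the same library numbers in both groups, the sign of the *Eif4e* TE difference did not change.

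In GS TG, *Eif4e* RNA-Seq was 3729 and 613 and footprinting 1722 and 1769. The authors' RNA-Seq means were 2397 in non-TG control and 2171 in GS TG (log2 change -0.14), and the footprinting means 1622 and 1745 (0.11). The TE difference was 0.25 (*z* 0.91). In KO, *Eif4e* footprinting was 640.2 and 578 against 467 and 584 in WT, and RNA-Seq 515 and 683 against 493 and 704. The KO footprinting values were both near the higher WT value, the ranges overlapped, and limma gave a footprinting change of 0.22 (95% interval -0.41 to 0.84). The TE difference was 0.21 (*z* 0.70).

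Among the scaffolds, *Eif4g1* and *Eif4g3* hold eIF4E and eIF4A together, and *Eif4g2* encodes DAP5, which lacks the eIF4E-binding site and serves initiation without eIF4E. *Eif4g1* (uc007yqs.1) lies on chromosome 16 from 20668386 to 20692957 on the plus strand and *Eif4g3* (uc008vjw.1) on chromosome 4 from 137548937 to 137764423 on the plus strand. *Eif4g2* (uc009jfy.1) lies on chromosome 7 from 118211499 to 118226544 on the minus strand. *Eif4g2* had the lowest TE of the 9 genes in WT and KO, with ratios of 0.265 and 0.220 at percentiles 6.70 and 6.07 of all transcripts. In non-TG control its ratio was 0.479 and 0.560 in the 2 transgenic tables, at percentiles 14.9 and 15.1. Footprinting per kb was 1.28 to 2.37 times that of *Eif4g1*, and RNA-Seq 2.15 to 4.19 times, or 1.44 to 4.88 times by library. *Eif4g3* stood at 0.483 to 0.545 of *Eif4g1* in footprinting and 0.320 to 0.686 in RNA-Seq, or 0.272 to 0.799 by library.

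*Eif4g2* RNA-Seq in GS TG came to 7188 and 4059 normalized reads, and its footprinting to 3734 and 3673. The footprinting libraries were nearly equal and the RNA-Seq libraries were not. The authors' RNA-Seq means were 7523 in non-TG control and 5624 in GS TG, a log2 change of -0.42 that was the largest of the 9 genes in size, while the footprinting means were 3602 and 3704 (0.04). The TE difference was 0.46 (*z* 1.89), past the cutoff. The ratio of the footprinting mean to RNA-Seq library 1 was 0.515 and to library 2 0.912, both above the 0.479 of the control means. With 1 GS TG library left out, the TE difference ran from 0.11 to 0.93 and its *z* score from -0.15 to 1.42, so that the call was lost whichever of the 4 was removed. The control mean stayed whole, so these values also carry the difference between the GS TG libraries. In the GS/DA TG table RNA-Seq of *Eif4g2* was 9513 and 7654 in non-TG control and 12725 and 6225 in GS/DA TG, and footprinting was 5127 and 4493 against 5070.3 and 3854. The GS/DA TG values enclosed the control values in RNA-Seq. The within-pair RNA-Seq changes were 0.42 and -0.30, and the TE difference was -0.25 (*z* -1.01).

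In the KO table *Eif4g2* RNA-Seq was 5599.9 and 3019.95 in WT and 6176 and 4441 in KO, and footprinting was 1072 and 1211 against 1169.5 and 1164. RNA-Seq was higher in KO in both matched pairs, by 0.14 and 0.56 on the log2 scale, but the ranges overlapped. limma gave 0.35 (95% interval -0.63 to 1.33), and the TE difference was -0.27 (*z* -1.06). *Eif4g1* and *Eif4g3*, the scaffolds of eIF4F itself, had ranges that overlapped in each assay where control libraries were recovered. RNA-Seq of *Eif4g1* was 4243 and 4989 in GS TG, 4595 and 5324 in non-TG control and 5138 and 5527 in GS/DA TG, and 2024 and 2306 in WT and 2255 and 2218 in KO. Its footprinting in that order was 2521 and 2994, 3089 and 4062, 3830 and 3921, 1358 and 1752, and 1321 and 1888. The *Eif4g1* TE differences were -0.11, 0.01 and -0.00 (*z* -0.74, 0.50 and -0.08). RNA-Seq of *Eif4g3* was 1583 and 1349.8 in GS TG, 1557 and 1849 in non-TG control and 2285 and 1788 in GS/DA TG, and 1608 and 1269.7 in WT and 1746 and 1302 in KO. Its footprinting in that order was 1429 and 1556, 1549 and 1938, 1896 and 1934, 647 and 1011, and 746 and 964. The GS/DA TG libraries had the highest RNA-Seq value and the control the highest footprinting value, and the TE differences were 0.20, -0.12 and -0.04 (*z* 0.68, -0.28 and -0.22).

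*Ddx3x*, whose product acts on structured 5′UTRs and is encoded on the X chromosome (12858096 to 12871178, plus strand, uc009srl.2), varied most between the RNA-Seq libraries of the transgenic groups. RNA-Seq came to 4854 and 151 normalized reads in GS TG, 4536 and 449.7 in non-TG control of the GS/DA TG table and 5991 and 365.8 in GS/DA TG. Library 1 was high and library 2 low in all 3 groups, by 30.2-fold, 9.89-fold and 16.0-fold once 10 reads are added to each value. Among the 6523, 6870 and 7019 transcripts compared in these groups, the differences stood at percentiles 99.5, 98.5 and 98.6. Footprinting of *Ddx3x* was 3961 and 2488 in GS TG, 4175 and 4081 in non-TG control and 4354.5 and 4115 in GS/DA TG. The footprinting libraries were closer together, although the 1.59-fold difference in GS TG stood at percentile 97.7 of the 6222 transcripts compared. GS/DA TG was higher than non-TG control in each matched pair in footprinting and lay on both sides of it in RNA-Seq, with overlap of the groups in both assays.

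The TE ratio of *Ddx3x* depended on the RNA-Seq library used. With the footprinting mean and RNA-Seq library 1 alone it was 0.664 in GS TG, 0.910 in non-TG control of the GS/DA TG table and 0.707 in GS/DA TG. With RNA-Seq library 2 alone it was 21.3, 9.18 and 11.6. The ratio of the means was 1.499 in non-TG control of the GS TG table and 1.66 in that of the GS/DA TG table, at percentiles 84.8 and 82.4. The TE differences of the means were -0.22 in GS TG (*z* -1.25) and -0.31 in GS/DA TG (*z* -1.37). With 1 library left out they ran from -1.17 to 3.83 and from -2.78 to 2.81. Those ranges also carry the difference between libraries 1 and 2. limma gave a GS/DA TG change of 0.06 (95% interval -5.24 to 5.35) in RNA-Seq and 0.04 (-0.25 to 0.32) in footprinting. With the matched libraries as a block the RNA-Seq interval was -0.41 to 0.52.

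In the KO table *Ddx3x* RNA-Seq was 633 and 1534 in WT and 717 and 942 in KO, and footprinting was 1311 and 1487 against 1512 and 1316. The KO values lay between the WT values in RNA-Seq. The within-pair RNA-Seq changes were 0.18 and -0.70, limma gave -0.26 (95% interval -1.44 to 0.92), and the TE difference of the means was 0.40 (*z* 1.39). From footprinting library 2 and RNA-Seq library 1, those with Y-linked reads, it was -0.36 (*z* -1.05). Its TE ratio stood at percentiles 97.4 in WT and 97.8 in KO, the highest of the 9 genes in this table, with ratios of 1.29 and 1.70.

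**Figure D3:**
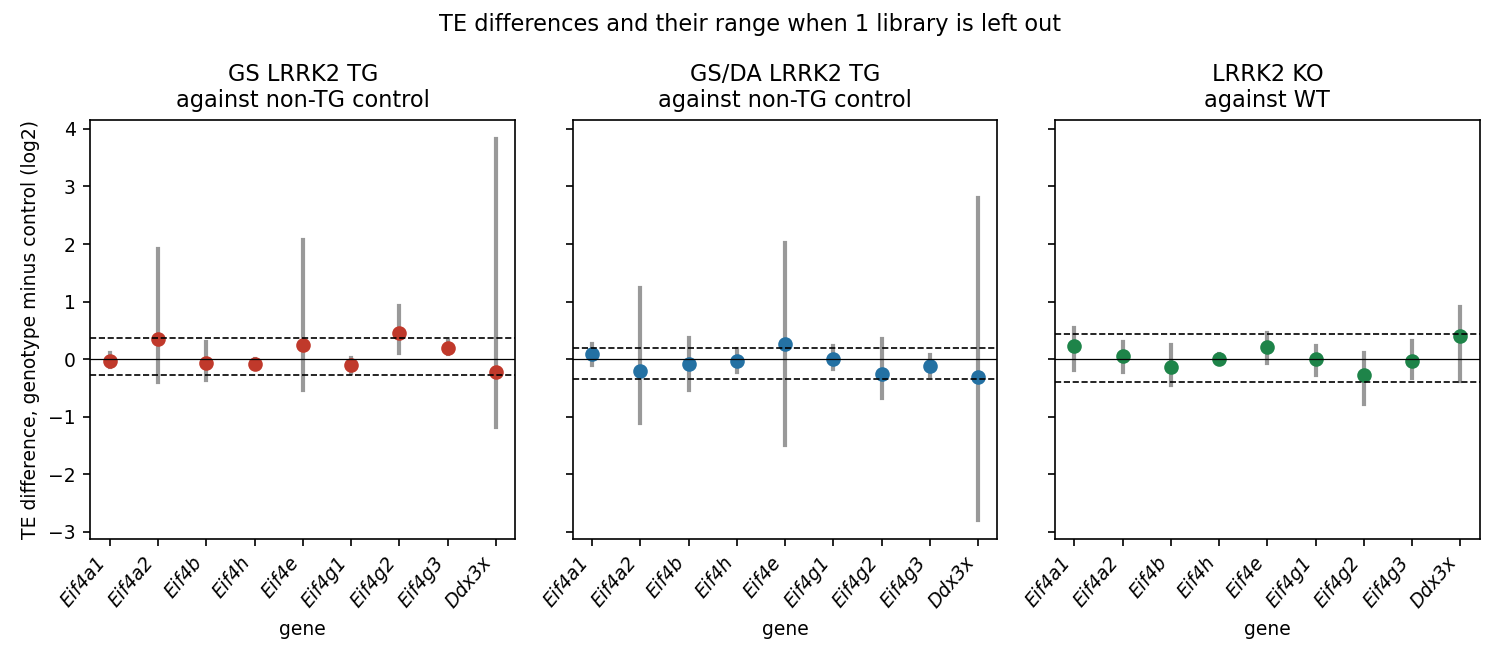
TE difference, genotype minus control (log2), of the 9 genes in GS TG, GS/DA TG and KO. Points are from the authors' group means, grey bars give the range when 1 recovered library is left out, and dashed lines mark *z* scores of 1.5 and -1.5. The bars also carry the difference between libraries 1 and 2 of a group. *Eif4g2* at 0.46 in GS TG and *Eif4e* at 0.27 in GS/DA TG lie past a line, and the bar of *Ddx3x* in GS TG runs from -1.17 to 3.83.

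Set against the spread between recovered libraries, the TE difference exceeded 1 SD for 1 gene in GS TG, *Eif4g3*, at 0.20 with an SD of 0.18 from the GS TG libraries alone. It exceeded 1 SD for 0 of 9 genes in GS/DA TG and 0 of 9 in KO, where the largest was 0.455 and 0.588 of an SD. This SD includes the difference between libraries 1 and 2 that control and genotype share. Across transcripts, Spearman's rho of that difference between the groups was 0.980 in GS/DA TG RNA-Seq. For *Eif4e* in GS/DA TG the SD was 1.78, beside within-pair RNA-Seq changes of -0.32 and -0.30. A count of 0 here thus does not show that the TE differences are small.

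Since *Ddx3x* is X-linked, sex-linked genes were set beside it. *Ddx3y*, its Y-linked paralogue (chromosome Y, 597158 to 623056, minus strand), had 365 and 1106 normalized footprinting reads in GS TG, 982 and 859 in non-TG control of the GS/DA TG table and 803 and 466 in GS/DA TG. In the KO table it had 7.79 and 442 in WT and 13.7 and 376 in KO. Library 1 was near 0 and library 2 high in both groups of that table, which was not so for *Ddx3x*. *Ddx3y* RNA-Seq was 228 and 15.4, 706 and 48.9, and 549 and 10.8 in the transgenic groups in that order, 245 and 21.2 in WT and 290 and 1.32 in KO. Of the 5 Y-linked symbols searched, 3 were listed, *Ddx3y*, *Kdm5d* and *Uty*, and in GS TG all 3 were TE up, beside 8.01% of all transcripts, with TE differences of 1.11, 1.00 and 1.77. In GS/DA TG and KO, only *Kdm5d* of these 3 passed a cutoff, down at -0.42 and -0.64, beside 7.36% and 6.02% of all transcripts. Of 5 symbols of X-linked genes that escape inactivation, *Eif2s3x*, *Kdm5c* and *Kdm6a* were listed. Their TE differences were 0.26, -0.12 and 0.32 in GS TG and 0.08, -0.19 and 0.13 in KO, where 0 of 3 passed a cutoff. Their GS/DA TG values were -0.23, -0.07 and -0.53, and *Kdm6a* was down, beside 7.36% of all transcripts. Footprinting libraries of GS/DA TG lay below those of non-TG control for *Ddx3y*, for *Kdm5d* (141 and 81.0 against 167 and 154) and for *Uty* (212 and 115 against 243 and 224), where 24.2% of all transcripts did not overlap. Without a block, limma called 0 of these sex-linked genes in either table, and 0 at an unadjusted p under 0.05. The blocked limma fit again called 0, but in GS/DA TG 3 of the 3 Y-linked genes in footprinting and 2 of 3 in RNA-Seq had an unadjusted p under 0.05, beside 14.0% and 1.60% of all transcripts, as did *Kdm6a* in TE and, in KO, *Ddx3y* in RNA-Seq. The part of sex in the *Ddx3x* values was not tested.

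The 5′UTRs of the 9 genes themselves span a wide range of predicted folding energy in the authors' annotation, where a lower energy means a more stable fold. The lowest was that of *Eif4g3* at -240.1 kcal/mol, followed by *Ddx3x* at -209.98 and *Eif4a2* at -160.9, at percentiles 14.4, 18.6 and 27.8 of the transgenic tables. *Eif4g2* and *Eif4g1* had -101.49 and -96.01 kcal/mol, near the middle. *Eif4a1*, *Eif4b* and *Eif4e* had -50.4, -48.3 and -36.3 kcal/mol, and *Eif4h* had -9.7 at percentile 94.1. The CDS ran from 654 bases for *Eif4e* to 4803 for *Eif4g1*, and its GC content from 43.4% for *Eif4a2* to 55.0% for *Eif4h*. *Eif4a2*, *Eif4e*, *Eif4g2* and *Ddx3x*, with GC contents of 43.4%, 44.2%, 45.0% and 46.3%, are the 4 lowest in GC and the 4 genes whose RNA-Seq libraries differed by over 2-fold in GS/DA TG. In GS TG and non-TG control *Eif4g2* was not among them, at 1.77-fold and 1.24-fold.

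Other genes of cap-dependent initiation were counted from 2 lists. Of 23 eIF4F regulators and related helicases, 20 were listed. In GS TG 3 were TE up, beside 8.01% of all transcripts, *Ddx3y*, the helicase *Dhx36* (TE difference 0.42, RNA-Seq change -0.34) and *Pdcd4*, an inhibitor of eIF4A (0.42 and -0.27). There *Gigyf2*, a partner of the cap-binding protein 4EHP, was the 1 gene TE down at -0.45, beside 3.91% of all. *Gigyf2* was the 1 gene TE up in GS/DA TG at 0.33, beside 3.65%, and 2 were down, *Dhx36* and *Pdcd4* at -0.43 and -0.35, beside 7.36%. In KO 0 were up, beside 6.23%, and *Pabpc4*, a poly(A)-binding protein, was the 1 gene down at -0.50, beside 6.02%. The median TE difference of this list was 0.09, -0.07 and -0.04 in the 3 comparisons.

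Of 21 factors of the preinitiation complex and of start codon selection, 19 were listed. In GS TG 5 of the 19 were TE up, beside 8.01% of all transcripts, *Abce1* at 0.64, *Denr* at 0.83, *Eif2a* at 0.54, *Eif2s2* at 0.67 and *Eif5* at 0.40, and *Eif2b5* was down at -0.28. Among these factors 0 were up and 4 were down in GS/DA TG, beside 3.65% and 7.36% of all, *Abce1* at -0.50, *Denr* at -0.44, *Eif1ax* at -0.39 and *Eif2s2* at -0.63. In KO 0 passed a cutoff in either direction. The median TE difference of these factors was 0.25, -0.21 and -0.04, beside medians of all transcripts of 0.02, -0.05 and 0.02. TE calls of both lists rest on group means, whose RNA-Seq libraries stood apart in GS TG and GS/DA TG. Apart from *Ddx3y*, library values are not given here for these genes, nor are results with a library left out. The *Eif4g2* call in GS TG was lost whichever library was left out. Whether the calls of these lists, or their opposite directions in GS TG and GS/DA TG, would hold was not tested. Without a block, limma called 0 genes of either list in GS/DA TG and KO, and 0 at an unadjusted p under 0.05, and it was not fitted for GS TG. With the block it called 0 as well, while 3 of 18 tested start factors in GS/DA TG footprinting, *Denr*, *Eif2b4* and *Mcts1*, had an unadjusted p under 0.05, near the 14.0% of all transcripts, as did *Ddx3y*.

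Markers of the tissue and of other cells were examined because bulk tissue does not tell fewer cells of a type from less RNA per cell. Of 11 symbols of striatal projection neuron markers, 9 were listed and none was at 0 in any group, with *Ppp1r1b* the most abundant. Their summed footprinting mean was 104441 in non-TG control and 96552 in GS TG, 140104 and 112529 in the GS/DA TG table, and 30002 in WT and 31119 in KO. The log2 changes of these sums were -0.11, -0.32 and 0.05, and those of the RNA-Seq sums -0.11, -0.20 and 0.07. In GS/DA TG 0 of the 9 were higher than control in either assay. limma called 0 of these markers with or without the block, and 0 unadjusted without it. With the block 3 of 6, *Drd1a*, *Pde10a* and *Ppp1r1b*, had an unadjusted p under 0.05 in GS/DA TG footprinting, beside 14.0% of all transcripts, and *Drd2* in KO RNA-Seq. By library, the sum of all 9 was 78401 and 114703 in GS TG footprinting, and 34943 and 25060 in WT and 37169 and 25069 in KO. The libraries of the GS/DA TG table were not resolved for all 9 markers. *Tac1* was TE up in KO, at 0.56, beside 6.23% of all transcripts, and 0 of the 9 passed a cutoff in the other comparisons.

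Of 5 markers of cortical projection neurons, 4 were listed in the transgenic tables and 5 in the KO table, with *Nrgn* the most abundant and none at 0. As many as 3 of 4 were higher in GS/DA TG than in control in footprinting and 4 of 4 in RNA-Seq, with median changes of 1.18 and 1.10. Footprinting means of *Neurod6*, *Slc17a7* and *Tbr1* were 119, 833 and 390 in non-TG control and 248, 2047 and 1044 in GS/DA TG. Those of *Nrgn* went the other way, 19217 in non-TG control and 16495 in GS/DA TG, so that the sum of all 4 had a log2 change of -0.05. The summed footprinting of the first 3 was 1630 and 1056 in the non-TG control libraries and 4104 and 2574 in the GS/DA TG libraries, so that the groups did not overlap, as for 24.2% of all transcripts one by one. The RNA-Seq sum of all 4 was 2296 and 14906 in control and 3685 and 17663 in GS/DA TG, which overlapped, although GS/DA TG was the higher in each matched pair. limma called 0 of 3 resolved markers in footprinting, with 3 at an unadjusted p under 0.05, beside 1.83% of all transcripts, and 3 of 3 with the matched libraries as a block, beside 0.273%. In RNA-Seq the blocked limma fit called 0 of 4, with *Neurod6*, *Slc17a7* and *Tbr1* at an unadjusted p under 0.05, beside 1.60% of all transcripts. The part of these markers in the *Eif4e* and *Ddx3x* values of GS/DA TG and the *Eif4g2* value of GS TG was not tested. In RNA-Seq 0 of 4 were higher in GS TG than in control, with a median change of -0.38 and a log2 change of the sum of -0.45. In footprinting 1 of 4 was higher in GS TG, with a median change of -0.23 and a change of the sum of 0.0015. In KO 0 of 5 were higher than in WT in RNA-Seq and 3 of 5 in footprinting. *Nrgn* and *Slc17a7* were TE up in GS TG at 0.40 and 0.68, beside 8.01% of all transcripts. *Tbr1* was TE up in GS/DA TG at 0.21, beside 3.65%, and in KO at 0.86, beside 6.23%. In KO the blocked limma fit called 0 of 5. *Tbr1* had an unadjusted limma p under 0.05 there in RNA-Seq and TE, beside 4.15% and 1.93% of all transcripts.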

How the data were processed

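The authors aligned the reads to mm9 with TopHat2 2.0.11 and Bowtie2 2.2.2, counted reads in coding sequences and normalized with DESeq 1.20, per the processing notes. They deposited 1 table per comparison, whose group means are a normalized signal without an error. The deposited TE values, TE differences and *z* scores were not used, and other deposited columns hold the 5′UTR folding energy in kcal/mol, another unit the authors took from a UCSC mm9 annotation. TE and its log2 difference were recomputed from the authors' means with a pseudocount of 0. Whole reads of the 2 libraries behind each mean were recovered where only 1 pair of whole numbers fitted, which held for 98.5% to 100.0% of transcripts in 10 of 12 columns, against 0.0732% to 0.956% once the same means had been shifted by a constant. limma 3.58.1 (R 4.3.3) was run on log2 of the normalized reads plus 10, each assay alone and with genotype, assay and their interaction for TE, with Benjamini-Hochberg adjustment over all transcripts of a table and a call at an adjusted p under 0.05. Other steps used Python 3.11.15, numpy 2.4.6, pandas 2.3.3 and scipy 1.17.1, with matplotlib 3.10.9 for plots, and the methods were tested on simulated data. CDS lengths, GC content, positions and sequences came from the mm9 assembly (NCBIM37) and its annotation, matched for 97.2%, 97.2% and 97.0% of transcripts. Matched libraries 1 and 2 were found from the difference between libraries that control and genotype share (Spearman's rho across transcripts 0.661 to 0.982). The 9 listed genes are named in all comparisons, and genes of other lists are named where a TE difference passed a *z* score of 1.5 in size or limma gave an adjusted p under 0.05, besides the sex-linked genes. The other lists were eIF4F regulators, preinitiation and start codon factors, Y-linked genes, X-linked genes that escape inactivation, and markers of striatal and cortical projection neurons, astrocytes, microglia, choroid plexus and blood, and oligodendrocyte markers were counted but are not reported here. The members and lists were chosen with earlier results of these data known. Alternatives were a minimum mean of 500, a *z* cutoff of 1 or 2, centering *z* on the median with a scaled MAD, other pseudocounts, libraries scaled to equal totals, 1 fit over both assays, a block for matched libraries, single libraries and leaving out each library. The ventral midbrain libraries were not analysed here.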

Additional observations from a re-analysis of the deposited data

How the results depend on the processing

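Counts of genes past the *z* cutoff, either way, and of genes called by limma were tried without leaving out a library. Of these, 48 stayed within 1.5 times the reported count and 18 did not. The 18 were all counts past the *z* cutoff, since limma called 0 of the genes under every alternative. In GS TG the count of 1 became 2 with group means of at least 500, 3 at a *z* cutoff of 1, 0 at a cutoff of 2 and 2 with a *z* score from the median and scaled MAD. The shares of all transcripts past a cutoff under other settings are not given here, so all these counts stand without a background. In GS/DA TG the count of 1 became 2, 3, 0 and 2 under the same settings. It was 0 with footprinting library 1 and either RNA-Seq library, 0 with footprinting library 2 and RNA-Seq library 2, and 0 with RNA-Seq library 2 and both footprinting libraries. With RNA-Seq library 1 and footprinting library 2 or both, the 1 gene was *Eif4g2*, TE down, and not *Eif4e*. In KO the count of 0 became 2 with means of at least 500, 2 at a cutoff of 1, 1 with the scaled MAD, 1 with a pseudocount of 10, 1 with footprinting library 1 and RNA-Seq library 2, and 1 with RNA-Seq library 2 and both footprinting libraries. Leaving out 1 library gave counts of 1 to 2 in GS TG, but *Eif4g2* was never among the genes counted. They were *Eif4a2* without footprinting library 2, *Eif4e* and *Ddx3x* without RNA-Seq library 1, and *Ddx3x* in the other 2 cases. The counts were 0 to 2 in GS/DA TG, with *Eif4e* past the cutoff for 3 of 8 libraries left out, and 0 to 1 in KO. The cause was not tested.

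The TE difference of *Eif4e* in GS/DA TG ran from -1.49 without non-TG control RNA-Seq library 1 to 2.01 without GS/DA TG RNA-Seq library 1. These values also carry the difference between libraries 1 and 2. Without a left-out library, 189 of the TE differences tried moved by less than the spread between libraries and 8 by more. That spread includes the difference between libraries 1 and 2 that control and genotype share, so it is wide. Among the genes past the cutoff 0 reversed. For other genes, 17 of 80 values tried in GS/DA TG and 19 of 90 in KO had the opposite sign to the reported one. In GS TG 0 of 27 did, but the settings with single libraries could not be run there without its control libraries. The 27 are thus not comparable with the counts of the other 2 comparisons.

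Of the limma changes under other settings that kept all libraries, 276 kept their direction and 4 reversed, all of these with libraries scaled to equal totals. They were 0.035 for *Ddx3x* TE, -0.028 for *Eif4b* RNA-Seq and 0.035 for *Eif4h* TE in GS/DA TG, and -0.0036 for *Eif4h* TE in KO. limma called 0 of the genes under every alternative, including the most alike pair of reads where several fitted, which was chosen after seeing the data. Without a block and with all libraries kept it called 0 transcripts of either table, so these counts do not set the genes apart. Leaving out 1 library of a pair leaves a lone library that is assumed to vary like the other group. That lone library, 1 or 2, is set against both libraries of the other group. The changes then also carry the difference between libraries 1 and 2. Leaving out 1 library reversed 94 limma changes and kept the direction of 170, and the part of that difference was not tested. For footprinting in GS/DA TG those reversed ran from -0.18 to 0.058 for *Eif4b*, -0.22 to 0.12 for *Eif4h*, -0.16 to 0.054 for *Eif4e*, -0.068 to 0.33 for *Eif4g1*, -0.32 to 0.079 for *Eif4g2*, -0.017 to 0.30 for *Eif4g3* and -0.0042 to 0.077 for *Ddx3x*. For RNA-Seq in GS/DA TG those reversed ran from -0.27 to 0.098 for *Eif4a1*, -1.16 to 0.99 for *Eif4a2*, -0.37 to 0.42 for *Eif4b*, -0.23 to 0.16 for *Eif4h*, -1.57 to 0.95 for *Eif4e*, -0.45 to 0.58 for *Eif4g2* and -1.94 to 2.05 for *Ddx3x*. For TE in GS/DA TG those reversed ran from -0.48 to 0.31 for *Eif4b*, -0.22 to 0.18 for *Eif4h*, -0.9997 to 1.52 for *Eif4e*, -0.18 to 0.22 for *Eif4g1*, -0.69 to 0.34 for *Eif4g2*, -0.28 to 0.068 for *Eif4g3* and -2.02 to 1.98 for *Ddx3x*. For footprinting in KO those reversed ran from -0.20 to 0.18 for *Eif4a2*, -0.11 to 0.14 for *Eif4b*, -0.14 to 0.010 for *Eif4h*, -0.22 to 0.29 for *Eif4g1*, -0.053 to 0.12 for *Eif4g2*, -0.25 to 0.38 for *Eif4g3* and -0.084 to 0.11 for *Ddx3x*. For RNA-Seq in KO those reversed ran from -0.46 to 0.27 for *Eif4a1*, -0.32 to 0.19 for *Eif4a2*, -0.22 to 0.47 for *Eif4b*, -0.16 to 0.018 for *Eif4h*, -0.24 to 0.26 for *Eif4e*, -0.044 to 0.14 for *Eif4g1*, -0.096 to 0.79 for *Eif4g2*, -0.13 to 0.29 for *Eif4g3* and -0.89 to 0.37 for *Ddx3x*. For TE in KO those reversed ran from -0.17 to 0.56 for *Eif4a1*, -0.20 to 0.31 for *Eif4a2*, -0.46 to 0.24 for *Eif4b*, -0.081 to 0.095 for *Eif4h*, -0.047 to 0.46 for *Eif4e*, -0.27 to 0.24 for *Eif4g1*, -0.76 to 0.13 for *Eif4g2*, -0.33 to 0.31 for *Eif4g3* and -0.36 to 0.91 for *Ddx3x*.

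No paired analysis was possible because the labelled replicate numbers cannot be assigned to all of the recovered libraries. In the GS/DA TG table, footprinting held 14980881 CDS reads in a non-TG control library and 19052228 in a GS/DA TG library. Each exceeds the mapped reads that the paper gives for the other replicates of its group, so its replicate is known. A KO footprinting library of 6051183 reads exceeded a KO replicate but not the others. Every RNA-Seq library lay below each replicate of its group, so depth assigned none. Pairs matched by their values were fitted as a block. limma was not fitted for GS TG, since the control libraries of its table were not recovered, and a fit to those of the other table was not tried. With 2 libraries a group and no block, intervals in RNA-Seq of the GS/DA TG table are over 2 log2 units wide, and they are narrower with the block. Depth in the KO table was lower than in the transgenic tables in footprinting.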

Other observations

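Markers of other cells were measured in every comparison, and none of them was at 0 in any group. *Ttr*, the choroid plexus marker, had footprinting means of 3944 in non-TG control and 723 in GS TG, a log2 change of -2.45, and 9125 and 3149 in the GS/DA TG table, a change of -1.53. Its footprinting by library was 1193 and 17056 in non-TG control, 5162 and 1137 in GS/DA TG and 1037 and 408 in GS TG, and its RNA-Seq 1811 and 13982, 7469 and 1137, and 1982 and 421. In the GS/DA TG table a single control library held most of the control reads, and GS/DA TG overlapped the control in both assays. The control libraries of the GS TG table were not recovered. *Ttr* was TE down in both transgenic comparisons, at -0.56 and -0.66, beside 3.91% and 7.36% of all transcripts, and TE up in KO at 1.14, beside 6.23%. In KO its RNA-Seq was 34.8 and 173 against 282 and 143 in WT. With the matched libraries as a block, limma with Benjamini-Hochberg adjustment called it in RNA-Seq, although its libraries overlapped and KO was lower than WT in pair 1 and higher in pair 2. In KO footprinting its blocked limma p was under 0.05 unadjusted only.

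Of 4 astrocyte markers, led by *Slc1a3*, *Aqp4* was TE up in GS TG at 0.52, beside 8.01% of all transcripts, with footprinting sums of 5618 and 5896 in the group means and 5922 and 5869 in the GS TG libraries. Of 4 microglial markers 3 were listed, led by *Csf1r*, and *C1qa* was TE down in GS TG at -0.30, beside 3.91% of all transcripts, with sums of 1707 and 1825 in the group means and 2096 and 1554 in the libraries. Of 5 blood symbols 3 were listed, led by *Hba-a2*. *Beta-s* and *Hbb-b1* were TE down in GS TG at -0.53 and -0.49, beside the same 3.91%, and *Hba-a2* was TE down in KO at -0.56, beside 6.02%. The blood footprinting sum was 5375 and 1364 in the WT libraries and 2716 and 1537 in the KO libraries, which overlapped. In the astrocyte, microglial and blood lists the other comparisons had 0 markers past a cutoff, and limma without a block called 0 of them, with 0 at an unadjusted p under 0.05. The blocked limma fit called 0 of these 3 lists too, while the 3 blood markers, *Gfap* and *Cx3cr1* in GS/DA TG footprinting, and *Gfap* and *Hba-a2* in KO footprinting, had an unadjusted p under 0.05, beside 14.0% and 3.19% of all transcripts. The part of these cells in the values of the eIF4F genes was not tested.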
